A study of Mus musculus with 18 samples.

Results

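Circular RNAs (circRNAs) of mouse liver were compared between 6 mice given carbon tetrachloride (CCl4) together with Pien Tze Huang (PTH) and 6 mice given neither. These 12 libraries were chosen by their group labels from a series of 18, and all 474 circRNAs of the deposited table were used. All mice were male C57BL/6, 6 weeks old when bought. The group labelled Control received corn oil by intraperitoneal injection (10 µl per g of body weight, 2 times a week) and distilled water by mouth every day. The group labelled Cirrhosis-PTH received 10% CCl4 in corn oil at the same volume and schedule and, daily by mouth, 0.25 mg of PTH per g from a 50 mg/ml solution. A group labelled Cirrhosis (6 libraries) received the same CCl4 injections with water. It entered the same fit, and its values and differences are given beside the others where they place a difference. Treatment lasted 12 weeks. Of 45 treated mice, 15 in each group, 18 were sequenced. The groups Cirrhosis-PTH and Control differ in both agents, so the share of CCl4 and the share of PTH in a difference between them cannot be told apart from this comparison.

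A circRNA forms when the spliceosome joins the end of an exon to the start of the same or an earlier exon, which is called back-splicing. The product has no free end, resists exonucleases and can outlast the linear mRNA of its host gene, so its level reflects both how often it is made and how slowly it is lost. CCl4 is turned by cytochrome P450 enzymes of hepatocytes into a reactive radical that kills these cells, and repeated doses lead to fibrosis and cirrhosis as stellate cells become matrix-producing myofibroblasts. PTH is a Chinese patent medicine used for liver disease.

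CircRNAs are told from linear RNA by reads that cross the back-splice junction. Junctions of 9 circRNAs described below are printed here because this junction is the only part of the molecule that the counts measure. The first 15 bases, in lower case, end the last exon of the circle, and the 15 bases in capitals begin its first exon. The letters were read 5′ to 3′ on the strand of the host gene, from the GENCODE M21 transcripts of GRCm38.
Pabpn1, exon 6: gggtcgaatctacagGTGATTCCCAAACGA
Tle1, exons 5 and 6: aatgccatcatcgggACTGAAATCGCCAAG
Hpn, exons 3 and 4: agccactgtaccaagGTGGCCGGACTGCAG
Atxn2, exons 19 and 20: cgcacgccatgtatgTACCAAATATGCCCC
Rbbp4, exons 4 to 11: caagtgtggcagatgAATTTGGAGGTTTTG
Nostrin, exons 6 to 8: gaaaactgctacaagCTTGATAATGAAGTG
Prim2, exons 6 and 7: tctaaggctttggcaATCAGTGACGAGGAG
Ehmt1, exons 16 to 18: aacatccgggacaacGCGGGTGCCAATATT
Cul1, exons 5 to 7: gaatatatgaaaaagCTTGCATTGGTGACA
None of these 9 junctions occurs in any of the 141767 annotated linear transcripts. The Pabpn1 junction joins the end of exon 6 to the start of that same exon, a circle of a single exon of 152 bases.

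Levels are CPM, junction reads scaled to a common library total, and they are small. The 474 circRNAs were carried by 794 to 1923 junction reads in the Control libraries and by 1293 to 8431 in the Cirrhosis-PTH libraries, with medians of 1537 and 1657. The totals to which the CPM are scaled ran from 2706146 to 11773972 in Control and from 4235961 to 29164326 in Cirrhosis-PTH. Over the 12 libraries 30.8% of all values were 0 and 43.5% were 0 or 1 read, so a zero shows only that no junction read was drawn at that depth. Liver was sequenced in bulk, where fewer cells of a type and less RNA per cell cannot be told apart.

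The livers of mice given CCl4 with PTH could not be separated from Control livers by any single circRNA after adjustment for the number tested. By limma, 0 of 474 circRNAs (0%) had an adjusted p under 0.05, and the smallest adjusted p was 0.506, for the circRNA of Pabpn1. At an unadjusted p under 0.05 limma gave 25 circRNAs, or 5.27%, of which 7 (1.48%) were higher and 18 (3.8%) were lower in Cirrhosis-PTH. Such a threshold by itself passes about 1 in 20 features when nothing differs, so the members named below are described by their values and not as changed. The count at an adjusted p under 0.05 was also 0 by edgeR and by DESeq2, which had 18 and 28 circRNAs at an unadjusted p under 0.05.

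The surplus of lower over higher circRNAs depended on how the libraries were scaled and on the model used. It was 7 higher and 18 lower on the deposited CPM and 6 higher and 22 lower after centring each library on the circRNAs present in all 18. In edgeR it was 3 and 15 on the totals behind the CPM and 10 and 10 with the trimmed mean of M-values (TMM). With DESeq2, where both the test and the size factors differ, it was 3 and 25. On the unscaled deposited CPM limma gave 9 and 10 with log10 of the library total as covariate, and 15 and 14 with array weights. The log2 differences of all circRNAs had a median of -0.01, and 49.8% were positive. DESeq2 moved that median by -0.17, to -0.18, so a DESeq2 difference is to be read against that shift. Leaving out the library Cirrhosis-PTH 4 also turned the split, to 17 higher and 14 lower.

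**Figure D1:**
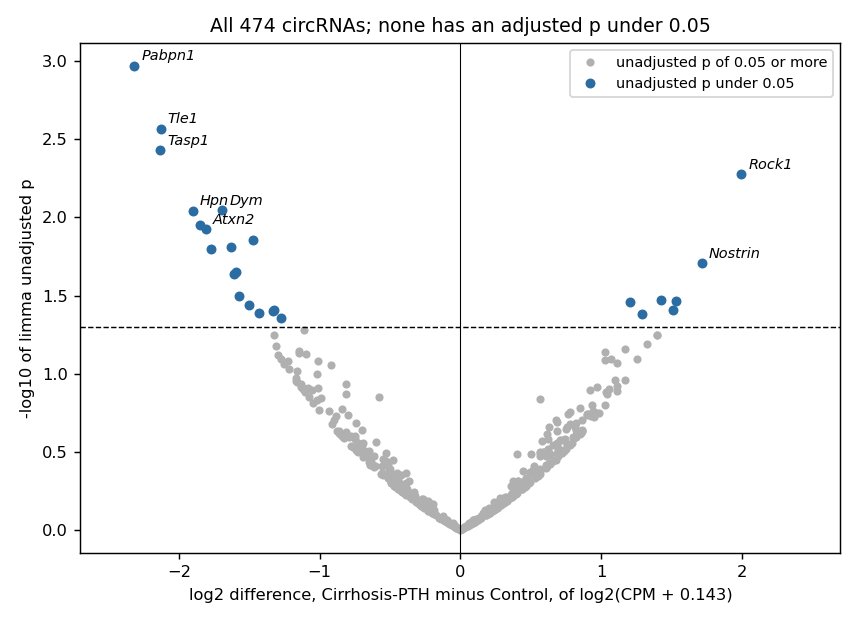
Each point is 1 of 474 circRNAs, with the log2 difference (Cirrhosis-PTH minus Control) on the horizontal axis and -log10 of the unadjusted limma p on the vertical axis. The dashed line marks an unadjusted p of 0.05, with 18 blue points above it on the lower side and 7 on the higher side, and none has an adjusted p under 0.05.

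Measures of whole libraries did not separate the 2 groups either. A Control library held 328 ± 44.3 (SD, n = 6) of the 474 circRNAs and a Cirrhosis-PTH library 328 ± 55.2 (SD, n = 6). Thinned to the same 794 reads, the depth of the shallowest library, the numbers were 275 ± 16 and 259 ± 18.8, with 258 ± 35.9 in Cirrhosis. That difference of -16.5 circRNAs had an exact 2-sided permutation p of 0.130, or 0.260 adjusted over 4 library measures. Summed over all circRNAs, the level was 259 ± 91.9 CPM in Control and 247 ± 87.9 CPM in Cirrhosis-PTH (exact permutation p = 0.823, adjusted 1). The 10 most abundant circRNAs held 13.8 ± 2.17% of the junction reads in Control and 15.6 ± 1.22% in Cirrhosis-PTH (exact permutation p = 0.130, adjusted 0.260). With 6 against 6 the smallest exact p that can be reached is 0.00216, so the design itself did not prevent a lower value. The total behind the CPM was larger in Cirrhosis-PTH by 0.235 on a log10 scale, with an exact permutation p of 0.177.

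Among circRNAs with lower values in Cirrhosis-PTH, the hosts with the smallest p encode a binder of poly(A) tails, a transcriptional corepressor and a protease. Pabpn1 encodes the nuclear poly(A)-binding protein, which controls the length of poly(A) tails. Its circRNA (chr14:54897121-54897272, coding exon 6) ranged in Control from 0.192 CPM through a median of 1.04 to 1.48, and in Cirrhosis-PTH from 0 through 0 to 0.175. All 6 Cirrhosis-PTH libraries lay below the lowest Control, with 30 junction reads in Control and 2 in Cirrhosis-PTH. The lowest Control value (Control 6) and the highest Cirrhosis-PTH value (Cirrhosis-PTH 1) were 1 read each. Their order rests on the totals of these 2 libraries, 5213790 and 5707814. The means were 0.928 ± 0.589 and 0.0506 ± 0.0798 CPM (SD, n = 6), and the log2 difference was -2.32 ± 0.71 (SE; limma adjusted p = 0.506). DESeq2 gave it an adjusted p of 0.0534 and edgeR 0.636. In Cirrhosis it was detected in the range 0 to 0.804 CPM, with a mean of 0.24 ± 0.376, so the Cirrhosis values overlapped both groups.

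Tle1 encodes a Groucho-type corepressor that transcription factors recruit to silence targets. The circRNA of its exons 5 and 6 (chr4:72169122-72170770) ranged in Control from 0 through 0.744 to 3.33 CPM. In Cirrhosis-PTH it was 0 in 5 libraries and 0.526 CPM, or 3 reads, in Cirrhosis-PTH 1. The groups overlapped, because Control also held a library at 0. The log2 difference was -2.13 ± 0.71 (SE; limma adjusted p = 0.587), and the Control mean of 1.15 CPM was 0.714 without Control 1.

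Tasp1 encodes taspase 1, the protease that cleaves MLL histone methyltransferases. Its circRNA (chr2:140042094-140057499, exons 2 to 4, from the 5′ UTR into coding sequence) was present in all 6 Control libraries, from 0.306 through 0.728 to 2.07 CPM. In Cirrhosis-PTH it was 0 in 4 libraries and reached 0.397 CPM. Of the Cirrhosis-PTH libraries 5 lay below the lowest Control. The log2 difference was -2.13 ± 0.73 (SE; limma adjusted p = 0.587), beside -0.56 ± 0.73 for Cirrhosis against the same Controls, and the Cirrhosis mean was 0.677 ± 0.512 CPM.

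Hpn encodes hepsin, a membrane serine protease with high expression in hepatocytes. Its circRNA (chr7:31108965-31109192, coding exons 3 and 4) ranged from 0.204 through 0.472 to 2.66 CPM in Control and from 0 through 0.0171 to 1.05 CPM in Cirrhosis-PTH. A single library, Cirrhosis-PTH 1, was inside the Control range and 5 lay below it. The means were 1.08 ± 1.14 and 0.193 ± 0.421 CPM, and the latter was 0.0218 without that library. The log2 difference was -1.90 ± 0.73 (SE; limma adjusted p = 0.688).

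Atxn2 encodes ataxin 2, an RNA-binding protein of translation control and stress granules. The circRNA of exons 19 and 20 (chr5:121802081-121803080, 318 bases) was present in all Controls, from 1.02 through 1.38 to 2.28 CPM. In Cirrhosis-PTH it ran from 0 through 0.409 to 1.58 CPM, with 5 libraries below the lowest Control. It had the most reads of the 12 lower circRNAs of smallest p, 60 in Control and 56 in Cirrhosis-PTH. Of these 56 reads, however, 46 were in Cirrhosis-PTH 6. Its Cirrhosis-PTH mean of 0.556 ± 0.627 CPM was 0.352 without that library. The log2 difference was -1.81 ± 0.72 (SE; limma adjusted p = 0.688). A circRNA of Atxn2 exons 2 to 5 had means of 0.832 and 0.43 CPM and a log2 difference of -0.56.

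Fbxo8 encodes an F-box protein of a ubiquitin ligase. Its circRNA (chr8:56564558-56569410, exons 2 and 3, 464 bases) was the other member of the 2 circRNAs (0.422% of 474) whose 6 values in one group all lay on one side of the 6 of the other. Control values ran from 0.204 through 0.458 to 0.739 CPM and Cirrhosis-PTH values from 0 through 0 to 0.171 CPM. In reads the groups overlapped, at 2 to 4 in Control and at 2 in Cirrhosis-PTH 5 and 5 in Cirrhosis-PTH 6. Cirrhosis-PTH 6 lay below the Controls in CPM through its large total, 29164326. The log2 difference was -1.63 ± 0.67 (SE; limma adjusted p = 0.688), and in Cirrhosis the circRNA ran from 0 to 1.46 CPM. At least 4 Cirrhosis-PTH libraries lay below the lowest Control for 13 circRNAs (2.74%) and above the highest for 12 (2.53%). A value can lie below the lowest Control only where no Control is at 0, so these 2 shares are not like measures.

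Among the other lower members, the circRNAs of 3 hosts had reads in 5 of 6 Controls and in 1 of 6 Cirrhosis-PTH libraries. Rbbp4, a histone-binding subunit shared by several chromatin complexes, had a circRNA of 8 exons (chr4:129317648-129322869, 902 bases) at 0.44 ± 0.395 CPM in Control and at 0 in 5 of 6 Cirrhosis-PTH libraries (log2 difference -1.48 ± 0.60). Dym, a Golgi protein, had a circRNA of exons 9 to 13 at 0.417 ± 0.237 CPM in Control and 0.0114 ± 0.028 CPM in Cirrhosis-PTH, where 5 libraries were at 0. Zcchc7, an RNA-binding cofactor of nuclear RNA surveillance, stood at 1.0 ± 1.71 CPM in Control, and at 0.317 CPM without Control 1, with 0 in 5 Cirrhosis-PTH libraries. These 3 had adjusted p values of 0.688, 0.688 and 0.778 by limma. A circRNA of the long non-coding RNA Gm34667 had means of 1.31 ± 1.3 and 0.196 ± 0.194 CPM, and one on chromosome 11 (chr11:16687937-16699485) with no annotated host had 1.32 ± 0.519 and 0.498 ± 0.696 CPM. A circRNA assigned to Mug1, a protease inhibitor of plasma, had means of 0.695 and 0.0817 CPM, but its family holds near-identical copies, so the host is uncertain.

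**Figure D2:**
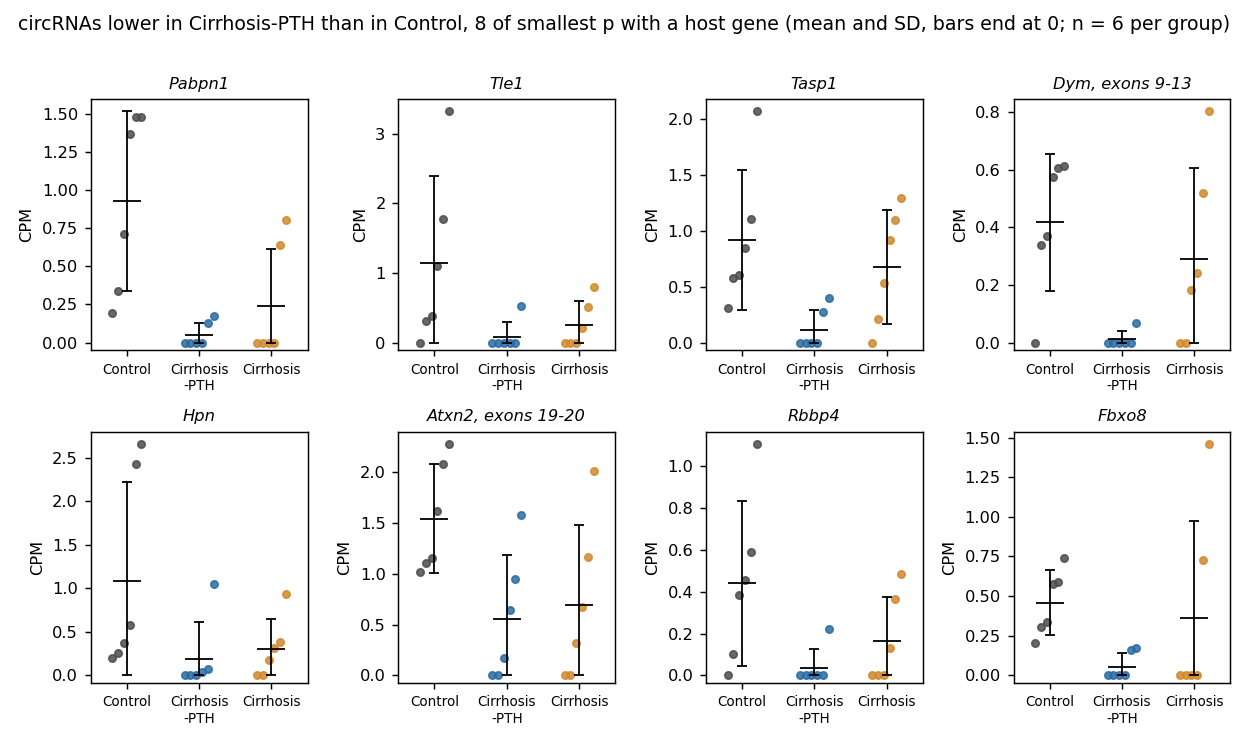
Each panel shows 1 circRNA, with CPM on the vertical axis, a dot for each library, and the mean with its SD (bars end at 0) for Control, Cirrhosis-PTH and Cirrhosis, 6 libraries each. For Pabpn1 and Fbxo8 all 6 Cirrhosis-PTH dots lie below all Control dots, and for Tle1, Dym and Rbbp4 5 of the 6 Cirrhosis-PTH dots are at 0. In reads rather than CPM, the groups meet at 1 for Pabpn1 and overlap for Fbxo8.

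Among circRNAs with higher values in Cirrhosis-PTH, Rock1 had the smallest p. ROCK1 is the kinase through which RhoA drives actomyosin contraction, and it acts in stellate cell contraction. Its circRNA (chr18:10129305-10132272, coding exons 7 to 9) ranged in Control from 0 through 0.0959 to 0.607 CPM and in Cirrhosis-PTH from 0.318 through 1.11 to 2.36 CPM. All 6 Cirrhosis-PTH libraries were above the Control mean and 4 were above the highest Control, so the groups overlapped in part. The means were 0.19 ± 0.247 and 1.14 ± 0.815 CPM (SD, n = 6), the log2 difference was 1.99 ± 0.71 (SE), and the limma adjusted p was 0.623. The Control mean was 0.106 CPM without Control 3. In Cirrhosis the mean was 2.08 ± 2.27 CPM, with a log2 difference from the same Controls of 2.63 ± 0.71 (limma adjusted p = 0.109).

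Nostrin encodes an adaptor that binds endothelial nitric oxide synthase. The circRNA of its exons 6 to 8 (chr2:69158769-69166007) was at 0 in 4 Controls, with a highest value of 0.607 CPM in Control 3. It was present in all 6 Cirrhosis-PTH libraries, from 0.171 through 0.534 to 1.43 CPM, of which 2 were above the highest Control. The Control mean of 0.133 CPM was 0.0384 without Control 3. The log2 difference was 1.71 ± 0.73 (SE; limma adjusted p = 0.774), and the mean in Cirrhosis, 0.646 ± 0.447 CPM, was near the 0.675 ± 0.469 CPM in Cirrhosis-PTH.

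Prim2 encodes the large subunit of primase, which lays down the primers of DNA replication. Its circRNA (chr1:33628395-33630433, coding exons 6 and 7) had no read in any Control and 19 reads in 5 of 6 Cirrhosis-PTH libraries, up to 0.514 CPM. Taking 3 reads across all Controls (0.076 CPM) as the lowest level told from 0, the pooled Cirrhosis-PTH level was 3.43 times that floor. This ratio leaves out the counting error of the 19 reads and the spread between mice, so it is not a lower bound. It was 2.41 without Control 8, the deepest Control, and 3.01 without Cirrhosis-PTH 6, which held 9 of the 19 reads. Prim2 and Wac made up the 2 circRNAs (0.422%) with 0 reads in 1 whole group. Every circRNA listed was above 0 in at least 9 of the 18 libraries, which limits this count. A circRNA at 0 in 1 group is listed only through at least 9 libraries of the other 2 groups. Wac had reads in all 6 Cirrhosis libraries. The log2 difference of Prim2 was 1.42 ± 0.67 (SE; limma adjusted p = 0.815) and its mean in Cirrhosis was 0.496 ± 0.305 CPM. Wac, an adaptor of histone H2B ubiquitination, had the opposite pattern, with 6 reads in 3 Controls and 0 in Cirrhosis-PTH. With 3 reads across Cirrhosis-PTH as the floor, the pooled Control level was 3.69 times that floor, again leaving out the counting error of the 6 reads. For Wac this ratio was 2.13 without Control 6 and 2.22 without Cirrhosis-PTH 6, and its mean in Cirrhosis was 1.13 ± 1.17 CPM.

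Ehmt1 encodes GLP, a methyltransferase of histone H3 lysine 9 that silences genes. Its circRNA (chr2:24813527-24825067, coding exons 16 to 18) ranged in Control from 0 through 0.172 to 0.34 CPM and in Cirrhosis-PTH from 0.298 through 0.887 to 0.944 CPM. Of the Cirrhosis-PTH libraries 4 lay above every Control, near 0.9 CPM, and 2 lay inside the Control range. In reads the groups met, at 4 in Control 8 and at 4 in Cirrhosis-PTH 2, whose 0.944 CPM was the highest value. Cirrhosis-PTH 1 and 3 held 5 and 7 reads and Cirrhosis-PTH 6 held 27. The means were 0.163 ± 0.144 and 0.71 ± 0.312 CPM, with a log2 difference of 1.53 ± 0.72 (SE; limma adjusted p = 0.815). Cirrhosis stood at 0.195 ± 0.265 CPM, a log2 difference of -0.06 ± 0.72 from Control. The direct difference of Cirrhosis-PTH from Cirrhosis was 1.59 ± 0.72 (limma adjusted p = 0.624), so none of the 3 pairs was separated after adjustment.

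Cul1, the scaffold of SCF ubiquitin ligases, had a circRNA of exons 5 to 7 (chr6:47501168-47502590) at 0.242 ± 0.206 CPM in Control and 0.867 ± 0.673 CPM in Cirrhosis-PTH, where 4 libraries lay above the highest Control. Its log2 difference was 1.40 ± 0.73 (SE; limma adjusted p = 0.876). Acaca, acetyl-CoA carboxylase 1, which makes malonyl-CoA for fatty acid synthesis, had a circRNA of exons 2 and 3 at 0.276 ± 0.327 and 1.0 ± 0.874 CPM. Only 2 of its Cirrhosis-PTH values were above the highest Control, and the log2 difference was 1.51 ± 0.73 (limma adjusted p = 0.815). Acvr2a, a receptor of activins, had means of 0.481 ± 0.56 and 1.32 ± 1.33 CPM, the latter 0.829 without Cirrhosis-PTH 2. Dcp2, the mRNA decapping enzyme, had means of 0.207 ± 0.348 and 0.68 ± 0.538 CPM. Fbxo47, an F-box protein, and Zfp606, a zinc-finger protein, were each present in 5 Cirrhosis-PTH libraries and in 1 Control.

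**Figure D3:**
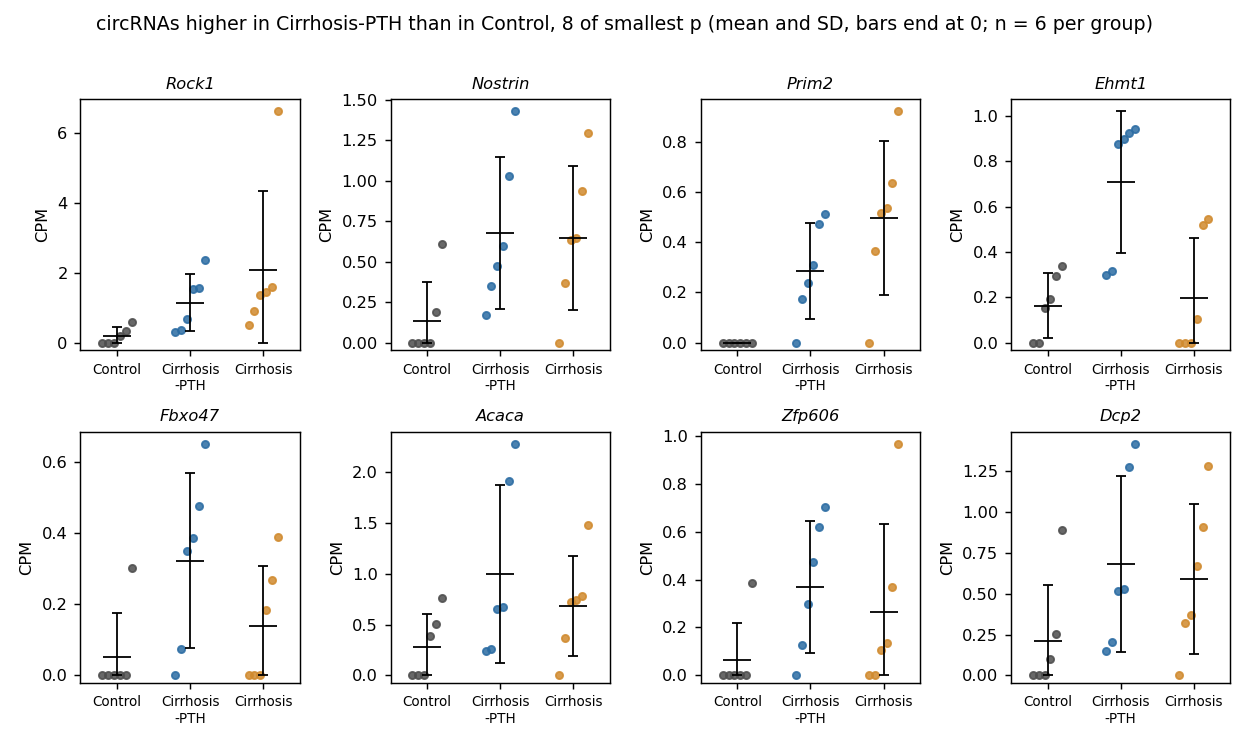
Each panel shows 1 circRNA, with CPM on the vertical axis, a dot for each library, and the mean with its SD (bars end at 0) for Control, Cirrhosis-PTH and Cirrhosis, 6 libraries each. Prim2 is at 0 in all 6 Controls, and 4 of the 6 Ehmt1 dots of Cirrhosis-PTH lie above all Control dots while the Cirrhosis mean, 0.195 CPM, is near that of Control. In reads rather than CPM, the Control and Cirrhosis-PTH groups meet at 4 for Ehmt1.

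Both CCl4 groups were set against the same 6 Controls, so their differences share those libraries and are given side by side as values only. Of the 24 circRNAs with the smallest p in either direction, the values of Pabpn1 were -2.32 with PTH and -1.80 without. Those of Atxn2 exons 19 and 20 were -1.81 and -1.61. The Rock1 values were 1.99 and 2.63, and the Nostrin values 1.71 and 1.56. In 3 of the higher circRNAs the Cirrhosis value was slightly below 0, at -0.06 for Ehmt1, -0.03 for Etv6 exon 2 and -0.16 for Ttc39c exons 9 and 10. The Cirrhosis-PTH value of that Ttc39c circRNA, 1.02 ± 0.57, turned to -0.10 in the 8 libraries whose replicate numbers both groups share, so its direction differed between sets of libraries. Over all circRNAs 58 (12.2%) had an unadjusted p under 0.05 by limma for Cirrhosis against Control and 34 (7.17%) for Cirrhosis-PTH against Cirrhosis, with 0 at an adjusted p under 0.05 in both.

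**Figure D4:**
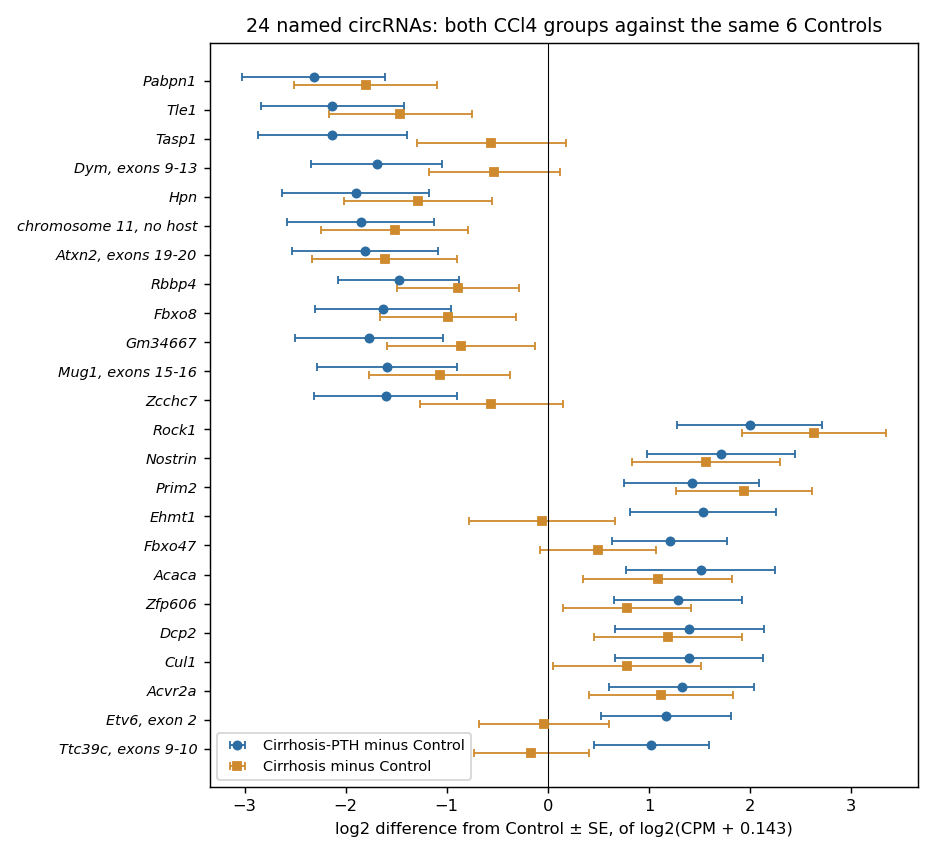
Log2 differences from Control, with SE bars, of the 12 lower and 12 higher circRNAs of smallest p, for Cirrhosis-PTH (circles) and Cirrhosis (squares) against the same 6 Controls. The circles were chosen by this contrast and so lie far from 0 by construction, while the squares of Ehmt1, Etv6 exon 2 and Ttc39c exons 9 and 10 lie at -0.06, -0.03 and -0.16.

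None of the 10 most abundant circRNAs of the 12 libraries was separated between the groups, with limma adjusted p from 0.876 to 0.984. Ube3a, a ubiquitin ligase, had the highest mean over the 12 libraries together, with 5.44 ± 3.18 CPM in Control and 7.98 ± 4.2 CPM in Cirrhosis-PTH. Rmdn2 exons 3 to 5 stood at 7.0 ± 3.18 and 5.0 ± 2.43 CPM, and Gramd1c, a sterol transfer protein, at 4.42 ± 1.2 and 6.46 ± 3.21 CPM. For Alg12, a mannosyltransferase of N-glycan assembly, the means of 3.35 ± 1.91 and 3.36 ± 1.52 CPM differed by far less than the spread within a group, as did those of Nfix, a transcription factor, at 2.43 ± 2.14 and 2.43 ± 1.06 CPM. Ttc39c exons 9 and 10 had 2.84 ± 2.12 and 3.81 ± 1.81 CPM, and Erbin exons 2 to 4 had 2.13 ± 1.29 and 3.41 ± 2.04 CPM.

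Of these, Tmem56 and Ogdh are given by library because their groups overlapped only in part. Tmem56 ran from 1.73 through 3.59 to 5.92 CPM in Control and from 1.28 through 1.66 to 2.24 CPM in Cirrhosis-PTH, where all 6 libraries lay below the Control mean and 3 below the lowest Control. Ogdh, a subunit of the 2-oxoglutarate dehydrogenase of the citric acid cycle, ran from 1.73 through 2.36 to 5.33 CPM and from 0.82 through 1.73 to 2.31 CPM, again with 3 libraries below the lowest Control. Their log2 differences were -0.92 ± 0.54 and -0.82 ± 0.55 (SE), each with a limma adjusted p of 0.876.

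Host genes were grouped into lists of liver functions and gene families, and each list is described by the sign of its log2 differences beside the 236 higher and 238 lower of all 474 circRNAs. Circles of 1 host are counted separately in these lists, although they are not independent. In lipid and sterol metabolism 12 of 16 circRNAs, from 13 hosts, were higher and 4 lower, with a median of 0.24. Acaca was the member with an unadjusted p under 0.05. Among the more abundant members of the list, Scp2 exons 13 and 14, of a sterol carrier, had means of 2.07 and 1.49 CPM. The number higher was 11 of 16 after median centring, 13 with TMM and 8 with the size factors of DESeq2, under which 41.6% of all circRNAs were positive, and the median stayed above 0 under each (0.07 with DESeq2).

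In xenobiotic metabolism 1 of 8 circRNAs was higher and 7 lower, with a median of -0.30, and none had an unadjusted p under 0.05. Its most abundant members were Ces1c, a carboxylesterase, at 0.87 ± 0.364 CPM in Control and 1.34 ± 1.16 CPM in Cirrhosis-PTH, and Cyp3a25, a cytochrome P450, at 0.519 ± 0.487 and 0.395 ± 0.425 CPM. Amino acid and urea cycle hosts were split 4 and 4 with a median of 0.03. Within them both circRNAs of Bckdhb, a subunit of the branched-chain keto acid dehydrogenase, had higher means in Cirrhosis-PTH, at 1.35 ± 0.772 and 2.11 ± 0.309 CPM for exons 4 to 8 and at 0.985 ± 0.647 and 1.96 ± 0.526 CPM for exons 2 to 6. The 2 circles come from overlapping exons of 1 gene and are not independent. Bile acid metabolism and hepatobiliary transport had 5 higher and 3 lower (median 0.10), with Abcb11, the bile salt export pump, at 0.297 ± 0.278 and 0.711 ± 0.723 CPM and Abcc2 exons 5 and 6 at 1.14 ± 1.17 and 0.648 ± 0.601 CPM. Secreted plasma proteins had 4 higher and 5 lower with a median of -0.48, and glucose, glycogen and mitochondrial energy metabolism 3 and 2 with a median of 0.03.

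Sequence-specific transcription factors had 23 of 32 circRNAs higher and 9 lower, a median of 0.31, and no member with an unadjusted p under 0.05. These 32 circRNAs came from 23 hosts, so the signs are not those of 32 separate genes. The 23 higher became 22 after median centring, 20 with TMM and 18 with DESeq2. Examples were Rfx7 exons 2 to 4 at 1.62 ± 1.15 and 2.22 ± 0.908 CPM, against Zeb1, a repressor of epithelial genes, at 1.27 ± 0.871 and 0.676 ± 0.593 CPM, and Thrb, the thyroid hormone receptor beta, at 1.38 ± 0.841 and 0.734 ± 0.585 CPM. Chromatin regulators had 8 of 21 higher and 13 lower with a median of -0.17, and held Ehmt1 on the higher side and Rbbp4 and Arid5b exons 3 and 4 on the lower side at an unadjusted p under 0.05, 3 of 21 beside 5.27% of all circRNAs. Eed, the Polycomb subunit that reads methylated histone H3 lysine 27, was at 1.46 ± 1.0 CPM in Control, 2.29 ± 1.12 in Cirrhosis-PTH and 5.0 ± 2.35 in Cirrhosis.

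RNA processing and mRNA decay had 13 circRNAs on each side of 26, a median of -0.00477, and 3 members at an unadjusted p under 0.05, Pabpn1, Atxn2 and Zcchc7, all lower, beside 3.8% of all circRNAs that were lower at this threshold. Hnrnpu, a nuclear scaffold RNA-binding protein, ran from 1.43 through 1.76 to 2.37 CPM in Control and from 0.671 through 1.17 to 1.51 CPM in Cirrhosis-PTH, where 5 of 6 libraries lay below the lowest Control. Its log2 difference was -0.68 ± 0.68 (SE; limma adjusted p = 0.876), with the SE taken from a spread shared with Cirrhosis, where the circRNA ran from 0 to 2.95 CPM. Ubiquitin ligases, conjugating enzymes and deubiquitinases had 13 of 21 higher (median 0.26), DNA replication, repair and mitosis 7 of 11 (median 0.50) and widely studied circRNA hosts 22 of 36 (median 0.17). Growth factor signalling, with the TGF-beta, Wnt and Hippo pathways, had 10 of 18 higher with a median of 0.04, which holds Rock1 at one end. The median of a list changed sign under at least 1 other scaling for amino acid metabolism (-0.03 after centring) and widely studied hosts (-0.02 with DESeq2). It also did for chromatin regulators and for RNA processing and mRNA decay (0.11 with TMM for each). The median of glucose and energy metabolism was below 0 after centring (-0.04), with TMM (-0.01) and with DESeq2 (-0.45). That of TGF-beta and related signalling was also below 0 under each of these (-0.02, -0.11 and -0.30). Of the extracellular matrix and fibrosis list a single circRNA was measured, that of Asph, at 1.11 ± 0.988 and 1.12 ± 0.673 CPM.

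**Figure D5:**
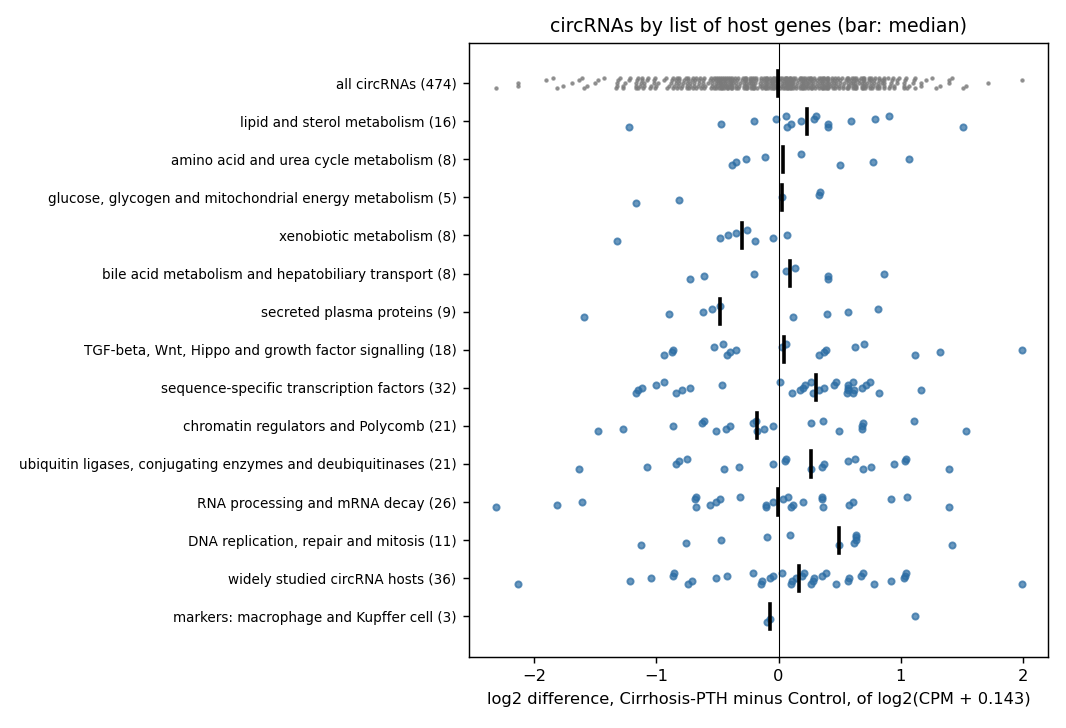
Each dot is a circRNA, placed by its log2 difference (Cirrhosis-PTH minus Control) in the row of its host gene list, with the number of circRNAs in brackets and the median as a black bar. Medians of lists with 5 or more circRNAs lie between -0.48 and 0.50, and the dots of every such list spread to both sides of 0.

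Markers of liver cell types gave few circRNAs, so the cell makeup of the tissue can be checked only in part. The hepatocyte markers measured were Egfr, at 1.52 ± 1.65 CPM in Control and 1.34 ± 0.868 in Cirrhosis-PTH, and G6pc, at 0.366 ± 0.461 and 0.349 ± 0.435 CPM. Their log2 differences were 0.39 and 0.03, above 0 although these means were lower in Cirrhosis-PTH. With TMM and with DESeq2, 0 of these 2 circRNAs were higher. The defining hepatocyte secreted proteins of that list, such as albumin, had no circRNA in the table. The 3 macrophage circRNAs, 2 of Adgre1 (F4/80) and 1 of Mertk, summed to 0.545 ± 0.348 CPM in Control (0 to 1.02) and 0.788 ± 0.42 CPM in Cirrhosis-PTH (0.149 to 1.19), beside 3.07 ± 2.34 CPM in Cirrhosis (0.184 to 6.76). The members went both ways between Control and Cirrhosis-PTH, with means of 0.157 and 0.511 CPM for Adgre1 exons 11 and 12, 0.0934 and 0.0614 CPM for Adgre1 exons 6 and 7, and 0.294 and 0.215 CPM for Mertk. Of the stellate cell and myofibroblast list only Tmem56 was measured and of the lymphocyte list only Ikzf1, at 0.514 ± 0.351 and 0.373 ± 0.321 CPM. No circRNA was listed for markers of endothelial cells, cholangiocytes or erythroid cells. The part of cell makeup in the values above was not tested.

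Host genes with several circRNAs allow the circles of one gene to be compared. Of 49 such hosts with 107 circRNAs, 13 had all members higher in Cirrhosis-PTH, 14 had all lower and 22 had members of both signs. Etv6, an ETS repressor, had 4 circRNAs with log2 differences from -0.84 to 1.17. Arid5b, a subunit that directs a histone demethylase, had exons 3 and 4 at 0.41 ± 0.428 and 0.0497 ± 0.122 CPM, and exons 6 and 7 at 0.141 ± 0.23 and 0.321 ± 0.289 CPM. Man1a, a mannosidase of the Golgi, had 2 circles that begin at the same exon, exons 3 to 6 with a log2 difference of -1.33 ± 0.65 and exons 3 to 5 with 0.23 ± 0.73. The difference between circles of one host was not tested, and each of these values rests on few reads.

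The structure of the circRNAs at an unadjusted p under 0.05 is given as a description. The 7 higher ones had a median of 2 exons and 297 spliced bases and the lower ones 2 exons and 318 bases, over the 15 of 18 whose ends both lie at exon ends of 1 transcript. Over all 435 circRNAs placed in this way the medians were 3 exons and 306 bases. In 171 of those 435 the first exon of the circle was exon 2. Coding exons alone made up 361 of them, and 56 ran from the 5′ UTR into coding sequence.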

How the data were processed

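Liver RNA of 12 mice, 6 labelled Control and 6 labelled Cirrhosis-PTH, was compared, with 6 Cirrhosis libraries in the same fit. Per the labels' protocols, TRIzol extraction was followed by removal of ribosomal RNA and a NEBNext kit, and no step that digests linear RNA is named. The labels name no batch. Groups and replicate numbers come from the sample titles.

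The deposited values are CPM made by the authors, 1 line per circRNA. Build GRCm38 and the tools Trim Galore, cutadapt 4.2, Bowtie2, Bowtie 1.3.1, StringTie 2.1.5 and HISAT2 2.2.1 come from the submitters' processing notes, and their roles are not given in the sources used here. Per the file headers CIRI called the circRNAs, and its version is not given. Each circRNA is above 0 in at least 9 of the 18 libraries. Of 5886 values above 0, 100% came to whole reads (within 0.01 read) when divided by the library's step, which gave reads and totals. The value of 1 read lay between 0.0343 and 0.370 CPM. No molecular identifiers are named, so floors cover counting error only.

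Differences were tested on log2(CPM + 0.143) with limma 3.58.1 (option trend, R 4.3.3). The pseudocount is the smallest non-zero CPM of a library, as the median of all libraries. All 18 libraries entered, tests were 2-sided and p was adjusted by Benjamini-Hochberg over 474 circRNAs. The pseudocount pulls differences of low circRNAs toward 0, while circRNAs named for a small p lie far from 0 by that choice. Differences on this scale therefore do not give the size of a change. Library measures had exact permutation tests over the 924 splits of 6 and 6. Ends were matched to exon ends of GENCODE M21 (1-based, strand from the host), with 435 in 1 transcript and 1 without a host. Other settings were 3 pseudocounts, 2 filters on low values, median centring, the 12 libraries alone, the total as covariate, the replicate block, array weights, edgeR 4.0.16 with the recovered totals or TMM, DESeq2 1.42.0 and each library left out. The script was tested on simulated data. Python 3.11.15 with numpy 2.4.6, pandas 2.3.3, SciPy 1.17.1 and matplotlib 3.10.9 was used for the rest.

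Named circRNAs were the 12 of smallest p in each direction, those whose groups did not overlap or with 0 in 1 group, the 10 of highest mean CPM and up to 3 of highest mean CPM in each of 21 host-gene lists (7 of cell markers). Some circRNAs under this rule are not reported here. The lists, the comparison and its members were chosen with earlier results of these data known.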

Additional observations from a re-analysis of the deposited data

Results flagged for a closer look

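For the 24 circRNAs of smallest p and the 4 library measures, 56 groups of 6 libraries were screened for a library far from the other 5, and 8 stood apart. The criterion passes about 1 in 20 groups by chance for continuous values, a rate that does not hold here, since in 6 of the 8 the other 5 libraries were all at 0 and any library with reads then stands apart. In Cirrhosis-PTH, Tle1 was at 0.5256 CPM in library 1 (3 reads), Rbbp4 at 0.2237 CPM in library 4 (3 reads), Zcchc7 at 0.5965 CPM in library 4 (8 reads) and Dym exons 9 to 13 at 0.0686 CPM in library 6 (2 reads), each with 0 in the other 5. Hpn was at 1.0512 CPM in Cirrhosis-PTH 1 (6 reads), beside 0 to 0.0746 CPM in the others. In Control, Dym exons 9 to 13 was at 0 CPM in library 2, beside 0.340 to 0.612 CPM in the others. Fbxo47 was at 0.3034 CPM in Control 3 (2 reads) and Zfp606 at 0.3836 CPM in Control 6 (2 reads), each with 0 in the other 5. Apart from the Control 2 value of Dym, each of these values comes from 2 to 8 reads.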

How the results depend on the processing

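The number of circRNAs at an adjusted p under 0.05 was 0 under all 26 other settings, with a smallest adjusted p of 0.0534 (DESeq2, Pabpn1). The 25 at an unadjusted p under 0.05 became 11 of 143 tested with a mean of at least 0.5 CPM and 9 of 205 tested with values above 0 in at least 9 of 12 libraries, where fewer circRNAs are tested, and ran from 19 to 31 with each library left out. With log10 of the library total as covariate 19 were found, 11 of them shared with the 25.

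Leaving out 1 library in turn, the difference in detected circRNAs (Cirrhosis-PTH minus Control) ran from -15.5 to 13.6, with -2.87 without Control 2, -3.23 without Cirrhosis-PTH 1, -8.23 without Cirrhosis-PTH 5 and -14.8 without Cirrhosis-PTH 6. At matched depth it ran from -22.0 (without Control 1, exact permutation p = 0.0368) to -10.4. The summed CPM differed by -31.2 to 18.6, with 0.616 without Cirrhosis-PTH 3 and 17.4 without Cirrhosis-PTH 4. The share of the 10 most abundant circRNAs differed by 1.08 to 2.22 percentage points (the latter without Control 7, exact permutation p = 0.0411).

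Replicate numbers 1, 2, 3 and 6 occur in both groups. Deviations of same-numbered libraries correlated at -0.0567, -0.0144, 0.0089 and 0.0228, and no library correlated best with its own number. The libraries were therefore not treated as pairs. Values this sparse cannot show whether same-numbered mice shared a batch, and the labels do not say. With the replicate block on these 8 libraries 0 circRNAs had an adjusted p under 0.05 and 27 an unadjusted one, against 29 without the block. Of 599 values of the 24 circRNAs under other settings 2 had the other sign, Ttc39c exons 9 and 10 at -0.10 in these 8 libraries with the replicate block and at -0.10 without it.

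The depth limits single circRNAs, since the median SE of a log2 difference was 0.694. Of 132 group means of named circRNAs, 36 moved over 1.5 times without 1 library.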
